A study of Mus musculus with 18 samples.

Results

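The cell cycle and DNA replication genes are a list of 40 genes, taken in every library by gene symbol. All 40 were found among the 23284 symbols of the mouse tables and, as upper-case symbols, among the 25434 symbols of the human tables. They were grouped by role into 10 genes of DNA replication, 18 of mitosis, 9 of the passage from G1 to S phase and 3 cell cycle inhibitors. RNA was sequenced in 18 libraries, 3 in each of 6 groups. ST2 high memory T helper 2 (Th2) cells, T cells that carry the IL-33 receptor ST2, spent 3 days in vitro with IL-2, either by itself or together with IL-33. Eosinophils spent 3 days in vitro without or with amphiregulin, a ligand of the epidermal growth factor receptor. Whole lungs came from OVA-treated wild-type mice or OVA-treated knockout mice titled dGATA, an allele that the labels do not spell out. Every sample is labelled BALB/c mouse, but the eosinophil tables list human genes and were read as human. What a replicate stands for (an animal, a culture or a donor) is not in the labels. The p-values therefore measure only how these libraries vary, and that variation may be technical.

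A dividing cell licenses its origins of replication with the Mcm helicase, copies its DNA with the help of the sliding clamp Pcna and the nucleotide-making enzymes Rrm1, Rrm2 and Tyms, and then separates its chromosomes under the kinases Cdk1, Aurka, Aurkb, Plk1 and Bub1. D cyclins with Cdk4 or Cdk6, and E cyclins with Cdk2, drive the passage from G1 to S phase and release E2F transcription factors. Cdkn1a (p21), Cdkn1b (p27) and Cdkn2c (p18) hold these kinases back. In the immune system the programme marks clonal expansion of lymphocytes and the growth of progenitors, whereas mature eosinophils have left the cycle.

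Promoter sequences from RefSeq (GRCm38.p6) were matched to 32 of the 40 genes in mouse, and the 200 bases before each annotated start were searched. The 5 windows below were chosen after the values were seen, because their genes differed with IL-33 and hold the letters of motifs known from cell cycle promoters. Capitals mark, on either strand, the E2F-type letters TTTNNCGC, the letters TTTGAA or TTCGAA of the cell cycle homology region (CHR) and the letters CCAAT of the CCAAT box. Each is written 5′ to 3′ on the strand of its gene.
Mcm6, chr1:128359706-128359905, minus strand: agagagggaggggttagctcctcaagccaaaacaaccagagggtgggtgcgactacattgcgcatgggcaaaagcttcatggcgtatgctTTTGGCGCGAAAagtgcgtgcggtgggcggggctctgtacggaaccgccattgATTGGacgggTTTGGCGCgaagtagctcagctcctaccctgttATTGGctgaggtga
Cdk2, chr10:128705052-128705251, minus strand: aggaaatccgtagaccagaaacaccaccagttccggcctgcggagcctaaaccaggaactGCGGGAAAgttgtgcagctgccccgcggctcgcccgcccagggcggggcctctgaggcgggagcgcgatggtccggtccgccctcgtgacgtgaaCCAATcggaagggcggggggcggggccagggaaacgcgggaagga
Bub1b, chr2:118598011-118598210, plus strand: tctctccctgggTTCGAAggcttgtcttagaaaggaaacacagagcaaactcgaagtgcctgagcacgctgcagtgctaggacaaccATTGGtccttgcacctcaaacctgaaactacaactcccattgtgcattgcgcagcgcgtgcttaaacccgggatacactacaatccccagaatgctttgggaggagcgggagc
Ccnb2, chr9:70421555-70421754, minus strand: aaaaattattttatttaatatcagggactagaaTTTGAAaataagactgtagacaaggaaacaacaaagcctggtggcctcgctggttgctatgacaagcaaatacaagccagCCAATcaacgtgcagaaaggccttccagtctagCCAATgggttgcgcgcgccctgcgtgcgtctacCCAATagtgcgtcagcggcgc
Mki67, chr7:135716380-135716579, minus strand: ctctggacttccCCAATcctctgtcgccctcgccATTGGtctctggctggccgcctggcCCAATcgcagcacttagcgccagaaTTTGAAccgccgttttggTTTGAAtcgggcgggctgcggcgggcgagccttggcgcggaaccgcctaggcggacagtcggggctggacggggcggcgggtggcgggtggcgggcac

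In Mcm6 the E2F-type letters stood on both strands, overlapping, between 110 and 99 bases before the start, and again at 47 to 40 bases. In Mki67 the CHR letters stood at 116 to 111 and at 98 to 93 bases before the start. Over the role groups, the CCAAT letters were found in 8 of 9 matched replication genes and 13 of 14 matched mitosis genes, against 32.7% of the 27025 genes in the table. The CHR letters were found in 7 of 14 mitosis genes, 2 of 9 replication genes and 0 of 6 G1 to S genes, against 15.4% of all. The E2F-type letters were found in 3 of 9 replication genes (Mcm5, Mcm6 and Mcm7), 2 of 6 G1 to S genes (Cdk2 and Cdk6) and 1 of 14 mitosis genes (Cdk1), against 4.09% of all. Of the genes described below as higher with IL-33, 3 of 5 (Mcm6, Cdk2 and Cdk6) held the E2F-type letters and 0 held the CHR letters. Of those lower with IL-33, 0 of 6 held the E2F-type letters and 3 (Mki67, Ccnb2 and Bub1b) held the CHR letters. A match describes letters in this window and is not a binding site.

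Relative read depth, estimated from the steps between low values with 1 library of each comparison set to 1, ran from 0.67 to 1.34 in Th2 cells, 0.36 to 1 in eosinophils and 0.58 to 1 in lungs. Gata1 stood at 1.65, 1.23 and 0.963 FPKM (fragments scaled to transcript length and library size) in wild-type lungs and at 0.126, 0.134 and 0.314 FPKM in dGATA lungs, without overlap. The summed FPKM of the T cell markers was 1121 to 2071 in Th2 libraries, and that of the eosinophil markers was 1089 to 4730 in eosinophil libraries. Most of the eosinophil sum came from 1 gene, CLC. PRG3, an eosinophil granule gene, was listed at 0 in all 3 libraries without amphiregulin. The eosinophil libraries also held neutrophil markers at a summed 6745 to 20426 FPKM, above their eosinophil sums. Most of the neutrophil sum came from S100A8 and S100A9. The other neutrophil markers, CXCR2, CSF3R, CAMP and MPO, ran from 1.38 to 628 FPKM. The sums therefore do not give the shares of these cell types. Macrophage markers stood at a summed 197 to 2361 FPKM and T cell markers at 98.2 to 401 FPKM. The eosinophil libraries numbered 4 and dGATA replicates 1 and 2 stood apart in most of the 40 genes, and results that rest on them are given without them. Differences were tested with limma after log2(FPKM + 1), which makes the change of a low gene look smaller, with p-values adjusted over all genes tested by the Benjamini-Hochberg method. Genes under an adjusted p of 0.05 are called.

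The first comparison asked what IL-33 adds to IL-2 in memory Th2 cells. The cell cycle genes did not move as a block. Of 39 tested, 5 rose (Mcm6, Cdk2, Cdk6, E2f1 and Cdkn1b) and 6 fell (Bub1, Bub1b, Ccnb2, Cenpe, Mki67 and Cdk4). Among all 10296 genes tested 16.3% rose and 25.7% fell, so the share of members that rose or fell was no higher than the background. All rises were in replication, G1 to S and inhibitor genes, and all falls but that of Cdk4 were in mitosis genes. The 5 of 18 mitosis genes that fell (27.8%) were near the 25.7% of all genes. Of the replication genes 1 of 10 rose, below the 16.3% of all genes, and 3 of the 8 tested G1 to S genes rose. The median log2 difference was 0.08 over the 10 replication genes, -0.07 over the 18 mitosis genes and 0.33 over the 8 tested G1 to S genes, beside -0.11 over all genes tested.

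**Figure D1:**
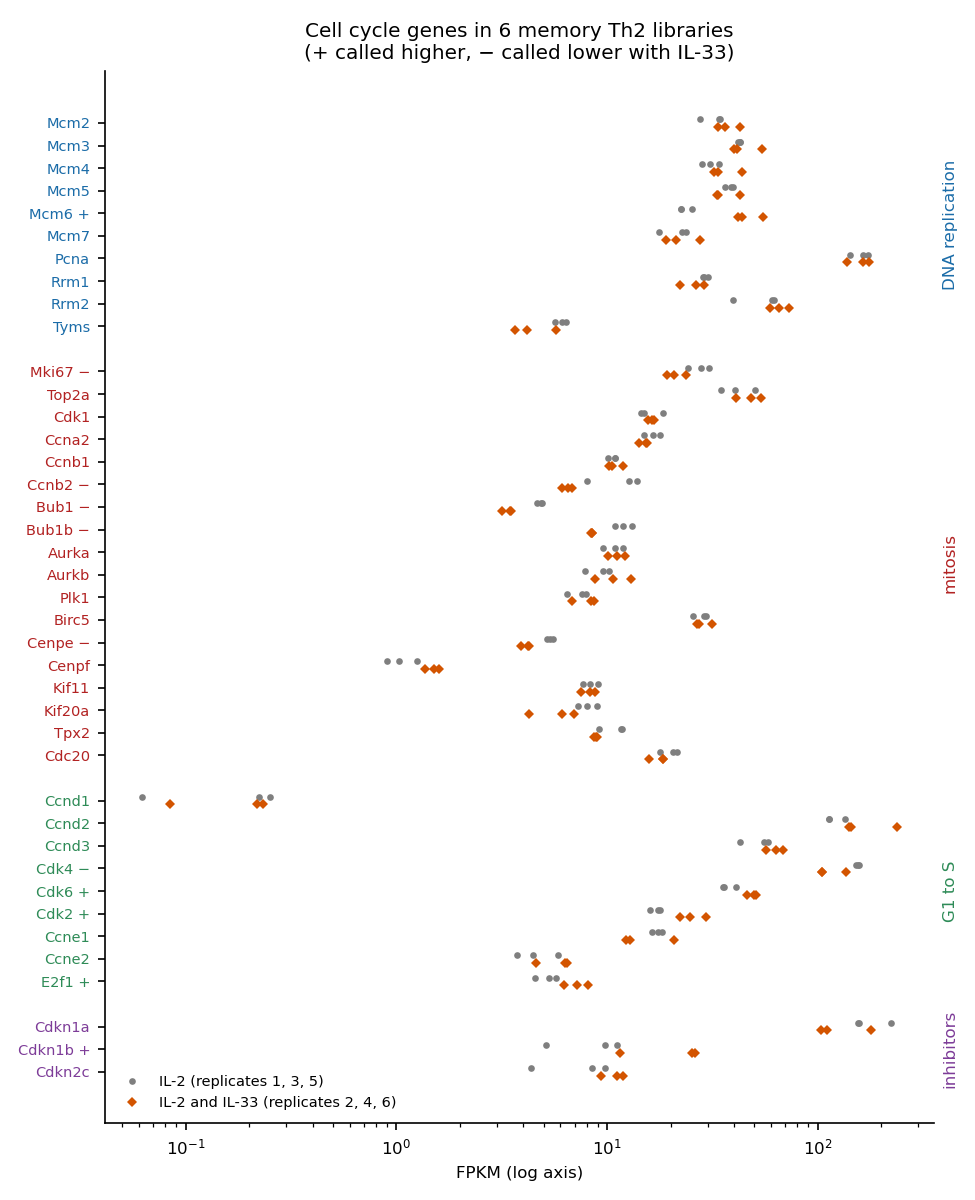
FPKM of the 40 genes (rows, coloured by role) in the 6 Th2 libraries on a log axis, with grey circles for IL-2 alone and orange diamonds for IL-2 and IL-33, 3 libraries each. Mcm6 is the replication gene whose groups are apart (22.4 to 25.3 against 42.0 to 54.7 FPKM), while Bub1, Bub1b and Cenpe lie lower with IL-33.

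Mcm6 encodes a subunit of the replicative helicase, whose 6 Mcm subunits form a ring in equal numbers. It stood at 22.4, 25.3 and 22.4 FPKM with IL-2 and at 42.0, 43.7 and 54.7 FPKM with IL-33 (chr1:128331591-128359656, mm10). The groups did not overlap and the rise was 2.00-fold (means 23.4 ± 1.69 and 46.8 ± 6.92 FPKM, SD, n = 3; log2 0.96, SE 0.118, limma adjusted p = 0.00112). None of the other 5 subunits was called. Mcm2 gave 34.0, 34.2 and 27.4 FPKM and then 33.8, 36.1 and 42.8 FPKM (log2 0.23, adjusted p = 0.174), and Mcm3, Mcm4, Mcm5 and Mcm7 had log2 differences of 0.08, 0.22, -0.07 and 0.08. Within each library, Mcm6 was 0.661, 0.742 and 0.794 times the median of the other 5 subunits with IL-2 and 1.24, 1.31 and 1.28 times that median with IL-33. This ratio needs no scaling between libraries, and its groups did not overlap. In the 12 eosinophil and lung libraries it ran from 0.206 to 1.07.

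The remaining replication genes overlapped between the groups. Pcna, the sliding clamp, was the most abundant, at 163, 173 and 142 FPKM with IL-2 and 164, 137 and 174 FPKM with IL-33 (log2 -0.01, adjusted p = 0.949). The ribonucleotide reductase subunits Rrm1 and Rrm2 had log2 differences of -0.17 and 0.30 (adjusted p = 0.225 and 0.214). Tyms, thymidylate synthase, gave 5.68, 6.35 and 6.07 FPKM and then 4.15, 3.65 and 5.72 FPKM (log2 -0.37, adjusted p = 0.0776).

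Among the mitosis genes, 3 genes of the kinetochore and its spindle checkpoint fell. Bub1b (BubR1) stood at 13.1, 11.9 and 10.9 FPKM with IL-2 and at 8.45, 8.44 and 8.35 FPKM with IL-33 (chr2:118598211-118641592; log2 -0.46, SE 0.0894, adjusted p = 0.00734). Bub1, its kinetochore partner, stood at 4.86, 4.64 and 4.91 FPKM and at 3.51, 3.45 and 3.16 FPKM (chr2:127800200-127831859; log2 -0.41, SE 0.0847, adjusted p = 0.00931). Both groups of values were apart for each gene. Cenpe, the kinetochore motor that aligns chromosomes, fell from 5.51, 5.17 and 5.37 FPKM to 4.25, 3.90 and 4.19 FPKM (log2 -0.31, adjusted p = 0.0218).

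The cyclin gene Ccnb2 fell most, from 12.7, 13.9 and 8.04 FPKM to 6.78, 6.12 and 6.51 FPKM (chr9:70407689-70421554; log2 -0.72, SE 0.185, adjusted p = 0.0203). Its low IL-2 value, replicate 5, was still above all 3 IL-33 values. Ccnb1, the other mitotic B cyclin of the list, gave 11.0, 10.0 and 10.9 FPKM and then 11.9, 10.2 and 10.6 FPKM and was not called (log2 0.03, adjusted p = 0.792). Mki67, the proliferation antigen Ki-67, fell from 30.4, 28.0 and 24.2 FPKM to 19.3, 20.7 and 23.5 FPKM (log2 -0.36, adjusted p = 0.0397). The lowest IL-2 value lay just above the highest IL-33 value.

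The other 13 mitosis genes were not called. Kif20a and Tpx2, a motor and a spindle assembly factor, lay lower with IL-33 without overlap (log2 -0.44 and -0.26, adjusted p = 0.0666 and 0.0916), and Cenpf, a kinetochore protein at about the 1 FPKM filter, lay higher without overlap (log2 0.27, adjusted p = 0.0779). Cdk1, the mitotic kinase itself, gave 14.9, 14.5 and 18.4 FPKM and then 16.7, 15.7 and 16.4 FPKM (log2 0.03). Top2a, Ccna2, Aurka, Aurkb, Plk1, Birc5, Kif11 and Cdc20 overlapped, with log2 differences from -0.17 for Cdc20 to 0.20 for Aurkb. Over all 39 tested members the groups did not overlap for 15, or for 8 of the 18 mitosis genes, beside 56.7% of all genes tested.

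In the passage from G1 to S phase, 3 genes rose and 1 fell. Cdk2, the kinase of the E cyclins, rose from 17.5, 17.9 and 15.9 FPKM to 24.8, 22.2 and 29.3 FPKM (chr10:128697939-128705051; log2 0.54, SE 0.113, adjusted p = 0.00964). The D cyclin kinases moved apart: Cdk6 rose from 40.7, 35.7 and 35.4 FPKM to 46.0, 50.7 and 49.7 FPKM (log2 0.38, adjusted p = 0.0128), while Cdk4 fell from 151, 154 and 157 FPKM to 104, 105 and 136 FPKM (log2 -0.43, adjusted p = 0.0246). E2f1, the activating E2F factor, rose from 4.55, 5.70 and 5.31 FPKM to 6.25, 7.17 and 8.12 FPKM (log2 0.40, adjusted p = 0.0341). In each of these 4 genes the groups did not overlap.

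The D cyclins were not called. Ccnd2 gave 113, 113 and 134 FPKM with IL-2 and 140, 143 and 237 FPKM with IL-33, without overlap, the last being replicate 6 (log2 0.49, adjusted p = 0.0951). Ccnd3 overlapped (log2 0.28, adjusted p = 0.134). Ccnd1 was below the filter at 0.0623 to 0.25 FPKM in all 6 libraries (exact permutation p = 1, n = 3 per group). The E cyclins Ccne1 and Ccne2 overlapped, at log2 -0.20 and 0.26.

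The 3 inhibitors differed among themselves. Cdkn1b, the p27 inhibitor of quiescent T cells, rose from 11.1, 9.77 and 5.14 FPKM to 25.2, 26.1 and 11.5 FPKM (chr6:134920401-134925525; 2.41-fold, log2 1.16, SE 0.363, adjusted p = 0.0393). Replicates 5 and 6 were the low values of their groups, and the lowest IL-33 value was just above the highest IL-2 value. Cdkn2c, the p18 inhibitor of Cdk4 and Cdk6, gave 9.72, 8.47 and 4.35 FPKM and then 11.1, 11.9 and 9.32 FPKM (log2 0.52, adjusted p = 0.136). Cdkn1a (p21) was the most abundant inhibitor, at 155, 157 and 222 FPKM and then 104, 110 and 179 FPKM, with overlap (log2 -0.46, adjusted p = 0.150).

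Other genes of the pathway were taken from lists set beside the 40, and those named are the ones with the smallest p of each list. Of 19 regulators, 3 rose and 6 fell, beside 16.3% and 25.7% of all genes tested. Rbl2, the p130 pocket protein that represses E2F targets in resting cells, rose 3.17-fold from 23.3 ± 2.81 to 74.0 ± 6.77 FPKM (n = 3, log2 1.63, limma adjusted p = 0.000111), and E2f2 rose from 4.29 ± 1.07 to 8.51 ± 0.348 FPKM (log2 0.87), while E2f3 and Lin54, a subunit of the complex that binds CHR motifs, fell (log2 -0.45 and -0.42). Of 8 further inhibitors, 6 were tested, of which 3 rose and 2 fell. Ccng2 (log2 1.35), a cyclin linked to cell cycle arrest, and Cdkn2d, the p19 inhibitor (log2 1.22, 22.3 ± 7.19 to 51.9 ± 8.58 FPKM), were among the rises, and Cdkn2b, the p15 inhibitor, fell from 11.1 ± 0.690 to 3.26 ± 1.83 FPKM (log2 -1.59, adjusted p = 0.0040).

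Of 28 further mitosis genes, 1 rose and 4 fell, both below the shares over all genes tested (16.3% and 25.7%). The securin gene Pttg1 fell from 49.7 ± 7.80 to 19.3 ± 1.05 FPKM (n = 3, log2 -1.31, limma adjusted p = 0.000348), Kif15 and Cks2 fell by less (log2 -0.55 and -0.53) and Prc1, which bundles microtubules of the central spindle, rose (log2 0.50). Of 30 further replication genes, 3 rose and 1 fell, again both below those shares. The DNA ligase Lig1 (log2 0.73) and the origin-licensing factor Cdc6 (0.48) were among the rises, and Rfc5, a subunit of the clamp loader, fell (-0.60). Of 18 alternatives in processing or libraries, Cdc6 was called in 7, Rfc5 in 11 and Lig1 in 15. Among the other genes named from these lists, Lin54 was called in 14, E2f3 and Prc1 in 17, and the rest in all 18.

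Mcm6, Cdk2 and Bub1 were called in all alternatives in which they were tested, 18, 18 and 17 of them, and all 11 called genes kept their direction in every one. The other 8 calls were lost in at least 1 alternative. Cdkn1b, Ccnb2, Cdk4, Cenpe and Mki67 were each not called without IL-33 replicate 2 or 4, nor without IL-2 replicate 3 (highest adjusted p over all alternatives 0.128, 0.0896, 0.0889, 0.185 and 0.399). Ccnb2, Cdk4, Cenpe and Mki67 were also lost without IL-2 replicate 1, and Cdkn1b and Cdk4 without IL-2 replicate 5. E2f1 was lost without any 1 of the 3 IL-2 libraries or IL-33 replicate 4 or 6 (highest adjusted p 0.158), and Cdk6 without IL-2 replicate 3 or IL-33 replicate 4 (0.0552). Scaling, filter or fit ended calls as well. Mki67 was not called with TPM, median-of-ratios or quantile normalization, Cenpe with TPM or median-of-ratios, and Cdk4 with TPM. With no filter, Mki67, Cdkn1b and E2f1 were lost. In the fit of all 12 mouse libraries Mki67, Cenpe, Ccnb2, E2f1 and Bub1b were lost, which for Bub1b was the only loss among the alternatives run (adjusted p = 0.192). Scaling by median-of-ratios moved the median gene from log2 -0.11 to -0.01 and the split over all genes from 1680 higher and 2651 lower to 2108 and 1986, with 7 members higher and 4 lower. Rescaling to a common sum (TPM) gave 2048 and 1636 over all genes, with 5 and 3 members. The T cell markers, whose sum was 1121 to 1293 FPKM with IL-2 and 1946 to 2071 FPKM with IL-33 (6 genes, each above 0.5 FPKM), moved with the groups, as did the Th2 markers at 9129 to 9978 and 13603 to 22210 FPKM. Their part in these results was not tested.

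The second comparison asked what amphiregulin changes in eosinophils. None of the 38 cell cycle genes tested was called (limma; 1 had an unadjusted p below 0.05), beside 0.206% of the 12636 genes tested. Where the replicate number was added as a block, because eosinophil libraries of equal number deviated together, again 0 members were called (6 had an unadjusted p below 0.05), beside 1.12% of all genes. The largest difference was that of CDKN1A, the p21 inhibitor.

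**Figure D2:**
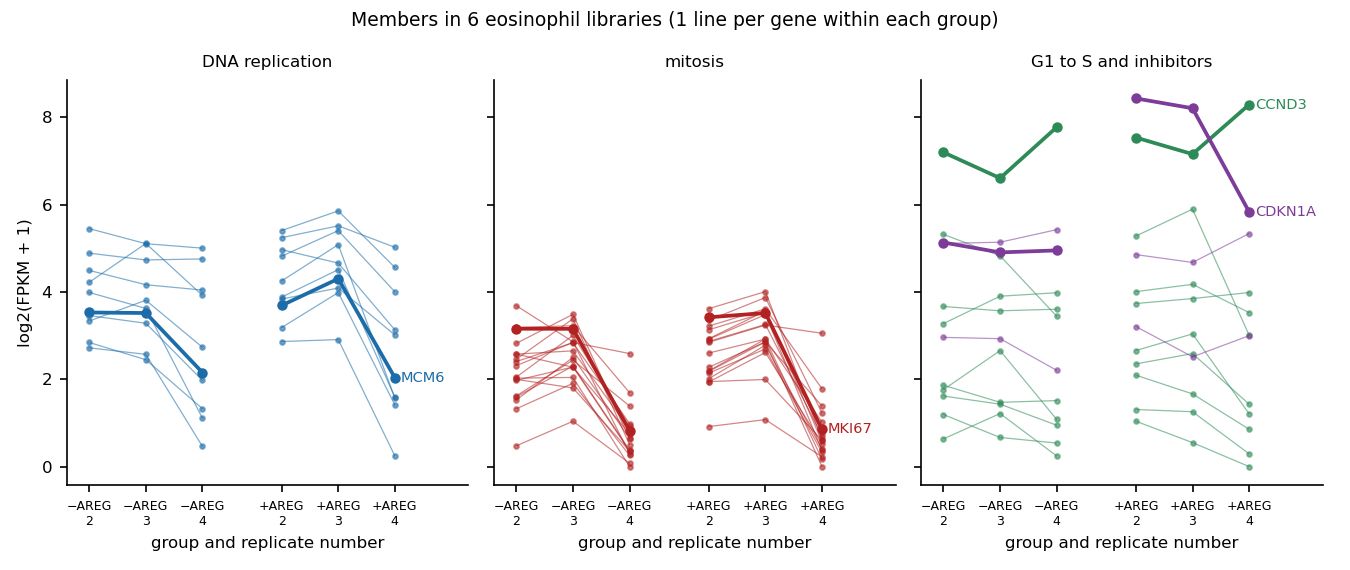
log2(FPKM + 1) of the 40 genes in the 6 eosinophil libraries, by role, with 1 line joining the values of a gene within a group and 4 genes drawn thicker. In both groups the libraries numbered 4 lie low for replication and mitosis genes, while CCND3 is highest there and CDKN1A is high in libraries 2 and 3 with amphiregulin.

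Libraries numbered 4, in both groups, lay below the other 4 libraries in 26 of the 28 replication and mitosis genes. MKI67 stood at 7.93, 7.92 and 0.762 FPKM for numbers 2, 3 and 4 without amphiregulin and at 9.70, 10.5 and 0.805 FPKM with it. The 18 mitosis genes summed to 76.7, 97.0 and 15.9 FPKM without amphiregulin and to 101, 145 and 19.0 FPKM with it. CDK1 and CCND1 were listed at 0 in library 4 with amphiregulin and BIRC5 in library 4 without it. Libraries 4 also had the lowest relative read depth, 0.44 without and 0.36 with amphiregulin, beside 0.56 to 1 in the other eosinophil libraries. A value of 0 in them is therefore not shown to be absence.

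AURKA, the spindle pole kinase, was an exception, at 3.97, 6.18 and 5.02 FPKM and then 6.19, 8.46 and 7.31 FPKM. Its values lay higher with amphiregulin without overlap by a narrow gap (log2 0.46, adjusted p = 0.999). MCM5 was also apart, at 28.6, 25.6 and 26.0 FPKM and then 36.9, 44.7 and 31.5 FPKM (log2 0.47, adjusted p = 0.999). With CDKN1A, 3 of the 38 genes tested had groups that did not overlap, beside 6.69% of all genes.

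Cell type markers moved with the numbers as well. The macrophage markers summed to 2208, 2361 and 320 FPKM without amphiregulin and to 537, 1010 and 197 FPKM with it. Of these, APOE, CD14 and MERTK lay lower with amphiregulin at every number, CSF1R and MRC1 higher, and CD68 and C1QA varied. MRC1 stood at 2.17, 2.75 and 0.535 and then 55.3, 93.8 and 16.8 FPKM. The dendritic cell markers summed to 35.6, 22.6 and 2.56 and to 205, 189 and 16.2 FPKM, and the eosinophil markers to 1625, 1356 and 4730 and to 1089, 1332 and 2777 FPKM. Most of the eosinophil sum was CLC, which like CCR3, SIGLEC8 and IL5RA was highest at number 4 in both groups. PRG2 was lowest there (37.9, 29.9 and 26.2, then 138, 108 and 8.63 FPKM), as were EPX and PRG3 with amphiregulin. T cell markers summed to 401, 259 and 178 FPKM and to 224, 156 and 98.2 FPKM. Neutrophil markers summed to 20426, 10588 and 8064 FPKM and to 13717, 9631 and 6745 FPKM, and erythroid markers to 2.51, 6.46 and 1.68 FPKM and to 12.2, 39.7 and 1.56 FPKM. The erythroid sum held only ALAS2 and KLF1. It was highest in library 3 with amphiregulin, the library that was also highest in 16 of the 18 mitosis genes. Libraries 4 had the lowest macrophage, dendritic, T cell, neutrophil and erythroid sums and the highest eosinophil sums of their groups. The globin gene HBA2, outside that erythroid sum, was instead lowest in libraries 2. It stood at 1374, 30344 and 11818 FPKM without amphiregulin and at 748, 17554.5 and 6028 FPKM with it. The part of these markers in the levels of the cell cycle genes was not tested, and in bulk RNA fewer cells of a type and less RNA per cell cannot be told apart.

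CDKN1A stood at 34.1, 29.0 and 30.0 FPKM without amphiregulin and at 345, 295 and 56.1 FPKM with it, for numbers 2, 3 and 4 (chr6:36644237-36655116 in the coordinates of the tables, of unstated genome build). All 3 values with amphiregulin exceeded all 3 without it, by 10.1-, 10.2- and 1.87-fold at equal numbers. The difference was log2 2.50 (SE 0.670, limma adjusted p = 0.979; with the replicate block SE 0.460, adjusted p = 0.0679). It was called without library 4 of the amphiregulin group (adjusted p = 0.00886) and with the block when small RNA features were left out (adjusted p = 0.0319). The other inhibitors overlapped: CDKN1B gave 33.6, 34.2 and 42.0 FPKM and then 28.0, 24.6 and 39.4 FPKM, and CDKN2C had a log2 difference of 0.21.

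Differences of the replication and mitosis genes were mostly above 0, and none was called. The median log2 difference was 0.39 over 10 replication genes and 0.36 over 17 tested mitosis genes, beside 0.02 over all genes. Over the groups, 34 of the 38 tested members had a log2 difference above 0, beside 6600 of all 12636 genes tested. With TPM the median was 0.50 over the members and 0.20 over all genes. At equal numbers, 25 of 28 were higher with amphiregulin at number 2, 25 at number 3 and 16 at number 4, and 14 were higher at all 3. The share of all genes that were higher at each number was not taken, so these counts have no background beside them. BUB1B was higher at all 3 numbers, by 2.02-, 2.14- and 1.63-fold, while PCNA was higher at 1 of 3. BUB1 had a log2 difference of 0.64, with an SE of 0.680 without the block and 0.213 with it (limma adjusted p = 0.302 with the block). With the block, the median over the tested members was 0.33, 0.23 and 0.47 without the pair numbered 2, 3 or 4. Leaving out a single library 4 unbalances the pairs, and the median was then 0.91 without that of the amphiregulin group and -0.10 without that of the other group.

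Of the G1 to S genes, CCND3 was by far the most abundant, at 146, 96.5 and 218 FPKM and then 185, 142 and 313 FPKM (log2 0.47, adjusted p = 0.999). It was higher at number 4 than at 2 or 3, opposite to the mitosis genes. CDK4 was lowest at number 4 in both groups, at 38.9, 27.4 and 9.88 FPKM and then 37.9, 58.6 and 7.05 FPKM. Of the further pathway lists none held a called gene, among 29 replication, 25 mitosis, 16 regulator and 7 inhibitor genes tested (limma; 0, 1, 1 and 1 had an unadjusted p below 0.05).

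The third comparison asked what dGATA changes in the OVA-treated lung. None of the 38 genes tested was called, and none had an unadjusted p below 0.05 (limma), beside 0.0947% of the 13727 genes called. In none of the 38 did the groups separate, whereas they did for 14.1% of all genes. The median log2 difference was -0.08 over the replication genes and 0.04 over the tested mitosis genes, beside -0.03 over all genes.

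**Figure D3:**
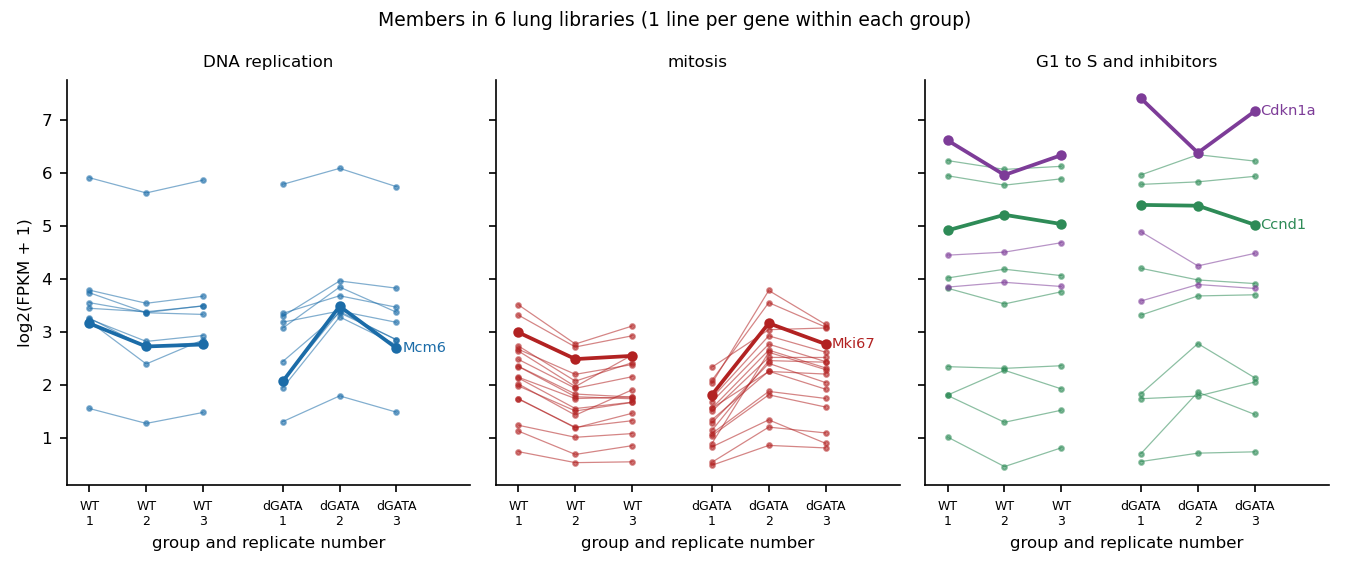
log2(FPKM + 1) of the 40 genes in the 6 lung libraries, by role, with 1 line joining the values of a gene within a group and 4 genes drawn thicker. Most replication and mitosis genes are lowest in dGATA replicate 1 and highest in dGATA replicate 2, and the wild-type libraries mostly lie between.

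Of the 28 replication and mitosis genes, dGATA replicate 1 was the lowest of the 6 lungs in 23 and dGATA replicate 2 the highest in 26. Mki67 stood at 6.96, 4.62 and 4.86 FPKM in wild type and at 2.52, 7.98 and 5.84 FPKM in dGATA lungs. Aurkb, the kinase of the chromosomal passenger complex, stood at 4.59, 2.83 and 3.46 FPKM and then 0.862, 5.14 and 3.89 FPKM. The 18 mitosis genes summed to 76.2, 46.1 and 56.1 FPKM in wild type and to 32.1, 91.6 and 71.9 FPKM in dGATA lungs.

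Immune markers followed the same order in the dGATA lungs. T cell markers summed to 54.5, 142 and 111 FPKM in dGATA replicates 1, 2 and 3 (85.7 to 108 FPKM in wild type), macrophage markers to 569, 1674 and 1287 FPKM (1168 to 1340 FPKM) and B and plasma cell markers to 52.9, 417 and 392 FPKM (143 to 249 FPKM). Retnla, a gene of alternatively activated macrophages and airway epithelium, stood at 656, 25231 and 10859 FPKM, and at 8681 to 11276 FPKM in wild type. Epithelial markers summed to 121366, 102013 and 98447 FPKM in dGATA lungs (81888 to 93406 FPKM in wild type), highest in replicate 1. Replicate 1 was thus low and replicate 2 high in the cell cycle genes and in these immune markers alike. Their part in the cell cycle levels was not tested. Without dGATA replicate 1 again 0 members were called (limma, 2 with an unadjusted p below 0.05). The median over the members was then 0.20, beside -0.02 over all genes. Leaving out dGATA replicate 2 instead also gave 0 called members (limma, 3 with an unadjusted p below 0.05). The median over the members was then -0.15, beside -0.03 over all genes, so its sign depended on the replicate left out.

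Among the G1 to S genes and inhibitors, Cdkn1a had the largest log2 difference. It stood at 97.0, 61.3 and 79.8 FPKM in wild type and at 169, 82.3 and 142 FPKM in dGATA lungs, with overlap (log2 0.68, SE 0.297, adjusted p = 0.733). It was highest in replicate 1, opposite to the mitosis genes. Ccnd1 gave 29.2, 36.0 and 31.8 FPKM and then 41.2, 40.7 and 31.5 FPKM (log2 0.21, adjusted p = 0.807). Of the further lists 0 genes were called (limma; 1 of 27 replication genes and 1 of 8 inhibitors had an unadjusted p below 0.05).

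The mouse groups were also set against each other, to place the levels. Th2 cells with IL-2 exceeded wild-type lung in 35 of the 40 genes and were lower in 3 (Ccnd1, Cdkn1b and Cdkn2c), beside 32.5% of 14148 genes called higher and 51.8% called lower. All 10 replication genes and all 18 mitosis genes were higher, with median log2 differences of 1.64 and 1.74, beside -0.39 over all genes. Quantile normalization turned the median gene to 0.34 and the split to 7355 higher and 4932 lower, with 36 members higher and 2 lower; Cdkn2c was then not called. This comparison sets cultured T cells against a whole organ, and cell type, culture and preparation cannot be told apart in it.

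**Figure D4:**
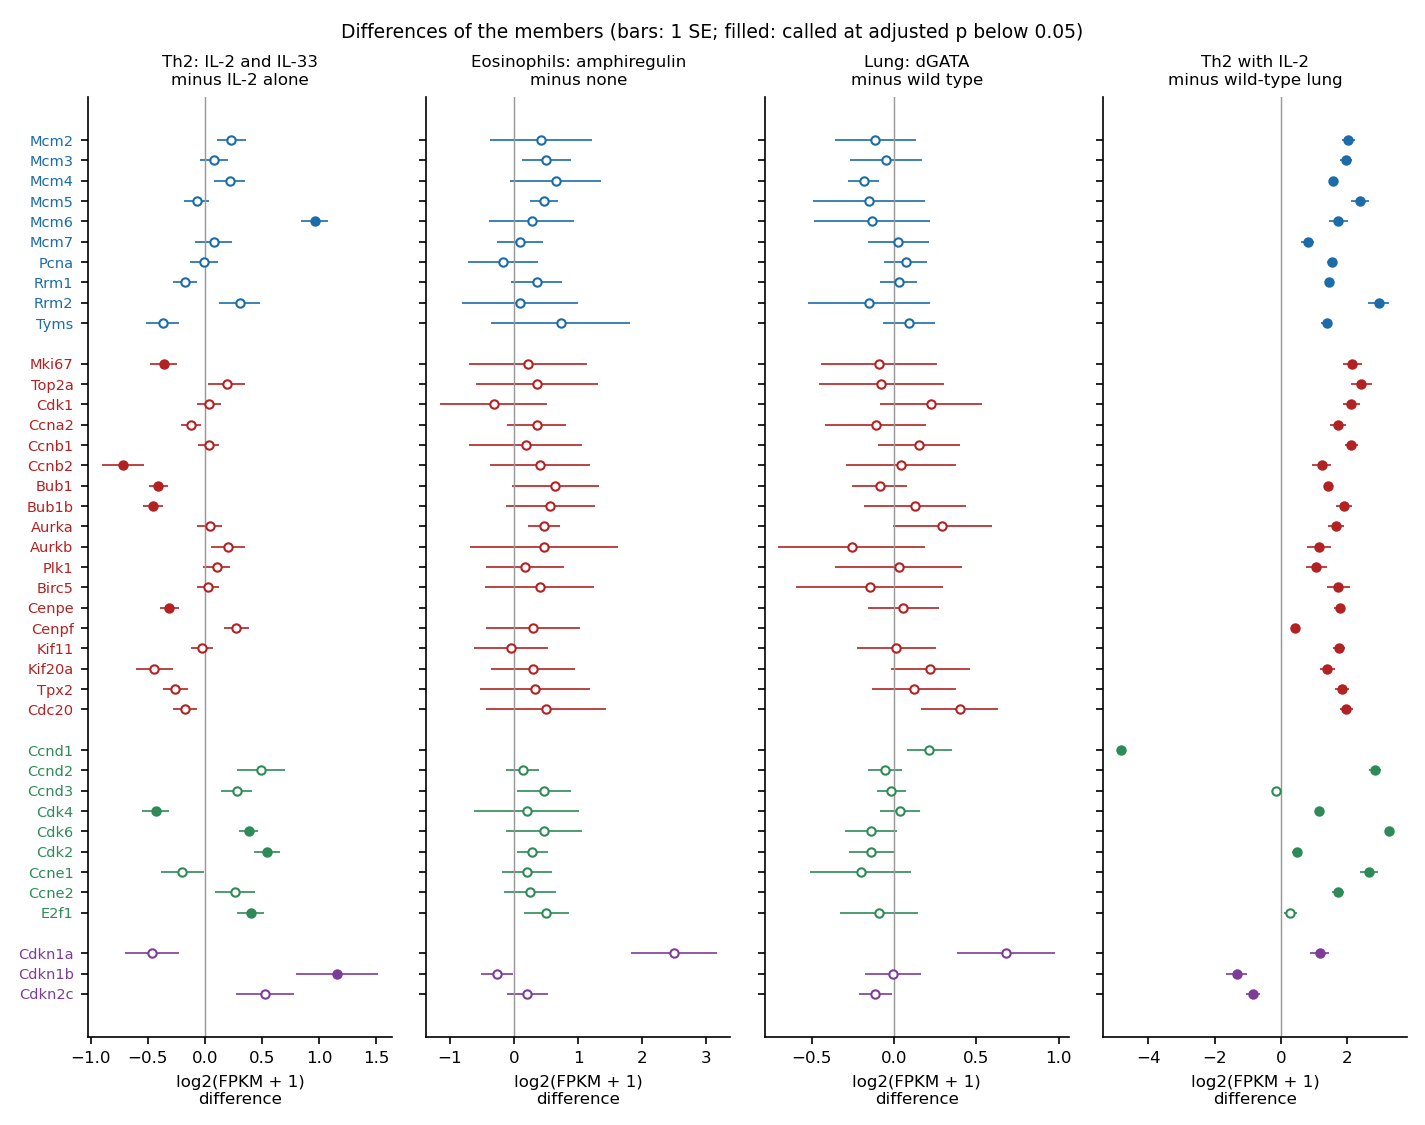
Differences in log2(FPKM + 1) of the tested genes (rows, coloured by role) in the 4 comparisons, each panel with its own scale. Points are fitted differences, bars 1 SE, and filled points are called, which are 11 of 39 for IL-33, 0 of 38 for amphiregulin, 0 of 38 for dGATA and 38 of 40 for Th2 cells against lung.

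Rrm2 had the largest difference of the replication genes, at 62.2, 60.5 and 39.6 FPKM in Th2 cells with IL-2 and at 8.19, 4.27 and 6.22 FPKM in wild-type lung (8.69-fold, log2 2.94, limma adjusted p = 4.08e-06). Mcm7 had the smallest, at 22.6, 23.6 and 17.7 FPKM against 12.8, 10.6 and 11.8 FPKM (1.81-fold, log2 0.80, adjusted p = 0.00194). Among mitosis genes Top2a, the topoisomerase that untangles sister chromatids, was 5.94-fold higher (log2 2.42), and Ccnb1 and Cenpe were 6.21- and 6.13-fold higher (log2 2.12 and 1.77). Ccne1 was 8.90-fold and Cdk6 12.2-fold higher in the Th2 cells (log2 2.65 and 3.25).

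Ccnd1 ran the other way, at 0.25, 0.222 and 0.0623 FPKM in Th2 cells and 29.2, 36.0 and 31.8 FPKM in lung (log2 -4.82, SE 0.125, limma adjusted p = 2.6e-11). Cdkn1b was 2.59-fold and Cdkn2c 1.83-fold higher in lung (adjusted p = 0.00224 and 0.00309), whereas Cdkn1a was 2.24-fold higher in Th2 cells (adjusted p = 0.00316). Ccnd3 and E2f1 were not called (adjusted p = 0.237 and 0.201). Beyond the 40 genes, Myc, a driver of cell growth, averaged 219 ± 41.5 FPKM in Th2 cells and 6.51 ± 1.43 FPKM in lung (n = 3, log2 4.87), and the quiescence factor Klf2 0.589 ± 0.224 and 105 ± 5.52 FPKM (log2 -6.07). Of the further lists, 29 of 30 replication and 27 of 28 mitosis genes were higher in Th2 cells and 0 lower. Of the 19 regulators, the list that holds Myc, 14 were higher and 1 lower. E2f3, E2f4 and Chek1 of that list had a smaller p than Myc and smaller differences (log2 1.98, 1.45 and 1.57). Of the 8 further inhibitors, the list that holds Klf2, 2 were higher and 5 lower. Btg1 was among the higher ones, opposite to Klf2, at 99.4 ± 5.77 FPKM in Th2 cells and 31.1 ± 3.01 FPKM in lung (log2 1.65).

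The make-up of the D cyclins, which link growth signals to Cdk4 and Cdk6, differed between the 3 kinds of sample in every library. In Th2 cells Ccnd2 took 69.6% ± 5.47 of the summed D cyclin FPKM with IL-2 and 72.6% ± 4.35 with IL-33 (SD, n = 3), and Ccnd3 took most of the rest. In eosinophils CCND3 took 91.3% ± 3.83 without amphiregulin and 93.3% ± 2.18 with it. In lungs Ccnd3 took 54.3% ± 3.84 in wild type and 51.7% ± 4.63 in dGATA, and Ccnd1 took 30.5% ± 3.00 and 34.3% ± 3.89. The highest Ccnd1 share outside the lung was 0.824%, in an eosinophil library. These shares are taken within a library, so they need no scaling between tables, and they are given as a description without a test. Within each kind of sample both groups overlapped in every share.

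**Figure D5:**
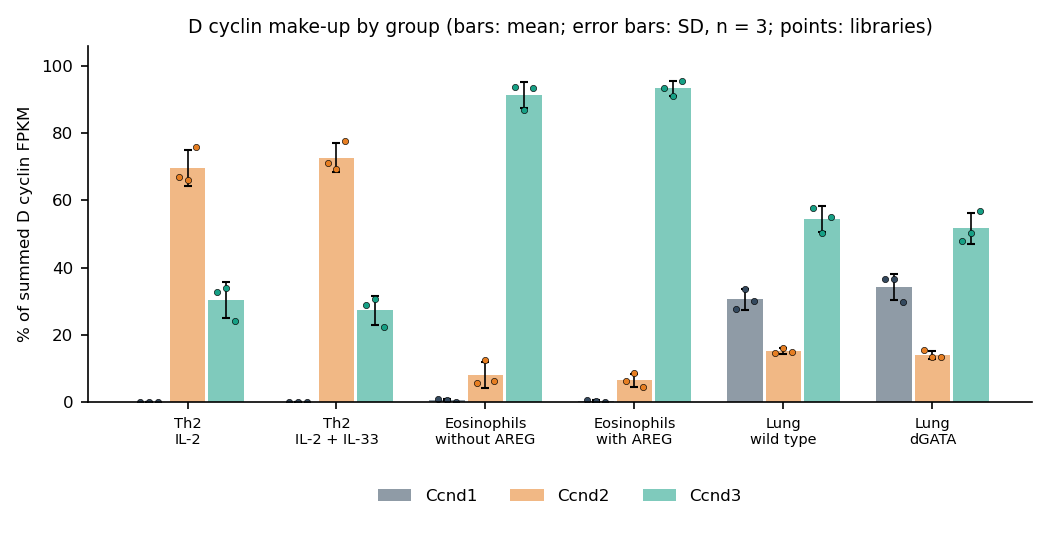
Share of each D cyclin in the summed FPKM of Ccnd1, Ccnd2 and Ccnd3 (y axis, percent) in the 6 groups, with bars for the mean, error bars for the SD of 3 libraries and points for the libraries. Ccnd2 leads in Th2 cells (65.9 to 77.5%), CCND3 in eosinophils (86.9 to 95.5%) and Ccnd3 with Ccnd1 in lung.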

How the data were processed

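FPKM per gene had been computed by the authors with Cufflinks 2.0.2, after TopHat 1.3.2 and Bowtie 0.12.8 on mm10, per the submitters' processing notes, and deposited as 1 table per library. RNA was extracted with TRIzol and libraries made with a stranded mRNA kit, per the labels' protocols. FPKM were summed per symbol, which left 23284 mouse symbols and 25434 human ones after 114 Y-linked or X-inactivation symbols were left out. Genes with at least 1 FPKM in at least 3 libraries of a fit were tested with limma 3.58.1 (R 4.3.3, trend) on log2(FPKM + 1), adjusted by Benjamini-Hochberg and called below 0.05. The script was tested on simulated data. Genes under the filter had an exact two-sided permutation test, which cannot go below p = 0.1 with 3 against 3. The Th2 and lung comparison used all 12 mouse libraries.

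All 40 genes were examined in every comparison. From each further pathway list, up to 4 genes per comparison could be named, by smallest p among those called or otherwise by largest mean. For some lists fewer or none are given. One gene that this rule names is not reported here. The members and lists were chosen with earlier results of these data known. Eosinophil libraries of equal number deviated together (correlations 0.399, 0.356 and 0.67), so their numbers were taken as pairs. Libraries 2 and 3 of opposite groups deviated together almost as much (0.281 and 0.308), and libraries 4 went against them (-0.428 to -0.506). The correlations thus set number 4 apart and hardly tell 2 from 3. Lung libraries of equal number did not deviate together (-0.286, -0.116 and -0.243). The alternatives were other pseudocounts, filters and scalings, omission of small RNA, library weights, the replicate block, wider fits and each library left out. Leaving out eosinophil pairs, the block with TPM or without small RNA, and leaving out Th2 replicates 5 and 6 were added after seeing the data. Promoters came from RefSeq (GRCm38.p6).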

Additional observations from a re-analysis of the deposited data

How the results depend on the processing

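The Th2 numbers do not recur between groups, so no paired fit was possible there. With IL-33, the 5 members called higher became 3 with no filter, 8 with library weights, 8 without replicates 5 and 6, and 2 to 4 with single libraries left out. The 6 called lower became 3 with TPM, 13 with library weights, 2 in the fit of 12 mouse libraries, 13 without replicates 5 and 6, and 2 to 10 with single libraries left out, while all genes called (4331) ran from 2491 to 4641. With amphiregulin, the 0 members called higher became 12 with library weights, 0 to 1 with single libraries left out, and, with the replicate block, 1 without pair 2, 1 without pair 4 and 1 without small RNA. All eosinophil genes called (26) became 7 with a pseudocount of 0.1, 8 with the stricter filter, 8 with quantile normalization, 3 without small RNA, 3236 with library weights and 0 to 49 with single libraries left out. With the replicate block they were 141, then 221, 9 and 581 without pair 2, 3 or 4, 137 with TPM and 203 without small RNA. For dGATA, library weights called 2 members higher and 1 lower. All lung genes called (13) became 1436 with library weights, 3 with the replicate block, 93 in the fit of 12 mouse libraries and 1 to 9 with single libraries left out. The library weight fits did not all converge, and the causes of these changes were not tested. With Th2 cells against lung, 37 of 38 calls held in every alternative run. With 3 libraries a group and read depth known only in relative terms, a difference that missed the threshold is not shown to be absent.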
